A study of Mus musculus with 6 samples.

Results

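Histamine and serotonin synthesis and storage was examined through 7 genes, Hdc, Tph1, Ddc, Slc18a2, Hnmt, Maoa and Maob, in leukaemia cells in which 1 copy of Usp18 was to be removed. They were taken by symbol from the 23608 rows of the deposited gene table, and all 7 had a row. The data were 6 bulk RNA-seq libraries of AE9a cells, a mouse acute myeloid leukaemia driven by a truncated AML1-ETO fusion protein and marked with GFP. Both groups came from Usp18+/f UBCER-Cre cells, in which the ubiquitin C promoter drives a tamoxifen-inducible Cre in every cell, and were grown in recipient mice until disease developed. Recipients then received oil (Usp18+/f, 3 libraries) or tamoxifen (Usp18+/D, 3 libraries), and GFP+Lin-c-Kit+ splenocytes were sorted 3 days after the first injection. The groups therefore shared the floxed allele, the Cre and the fusion, and there was no tamoxifen group without the floxed allele, so effects of tamoxifen itself and of the allele cannot be told apart.

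Histamine is made from histidine in 1 step by histidine decarboxylase, the product of Hdc. Serotonin is made from tryptophan by tryptophan hydroxylase, encoded by Tph1 outside the nervous system, followed by aromatic L-amino acid decarboxylase, encoded by Ddc. Slc18a2 encodes the vesicular monoamine transporter VMAT2, which loads both amines into granules in exchange for protons. Hnmt methylates and so inactivates histamine inside cells, and the monoamine oxidases Maoa and Maob break down amines, with serotonin the preferred substrate of Maoa. Mast cells and basophils are the main blood-derived stores of histamine, and rodent mast cells also hold serotonin.

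Each library held between 17118964 and 20741399 counts. The targeted gene, Usp18, which encodes a protease that removes ISG15 from proteins, went against its label: it measured 9.12, 11.0 and 11.2 CPM in oil 1, 3 and 4 and 15.1, 28.0 and 19.4 CPM in tamoxifen 1, 2 and 4. CPM is the scaled share of a gene in the counts of its library. On the log2 scale Usp18 differed by 1.0 ± 0.23 (SE) between the groups (edgeR adjusted p = 0.0739). The table counts the gene as a whole, and which exons are floxed was not given in the sources used here, so the count may not measure the deletion. The groups are called here the libraries labelled oil and the libraries labelled tamoxifen. Library tamoxifen 4 stood apart from the rest of its group. On the first principal component, which held 65.1% of the variance, it lay at -2.99, between the oil libraries (-31.1 to -23.4) and tamoxifen 1 and 2 (37.3 and 47.5), and the results on the 7 genes are given with and without it. Kit, which marks the sorted cells, lay between 439 and 782 CPM in every library.

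Of the 7 genes, 5 passed the filter on low counts. The other two, Hnmt and Maoa, were listed at 0 in every library. Tph1 was the 1 gene that passed the test with all libraries, at 2.58-fold more in the libraries labelled tamoxifen. Across all 11614 genes tested, 1.75% passed in that direction, 0.267% in the other and 2.01% in either, at an adjusted p-value under 0.05. Slc18a2, Maob and Hdc had higher means in the libraries labelled tamoxifen, at 2.74-fold, 1.6-fold and 1.49-fold, without passing. Ddc had nearly equal means.

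The promoter sequences of the 3 genes that define histamine synthesis, serotonin synthesis and granule loading are shown. Hdc, Tph1 and Slc18a2 had their highest values in the same 2 libraries, tamoxifen 1 and 2. Maob did as well, and these libraries also lay at the far end of the first principal component over all genes. RefSeq gave promoters for 6 of the 7 genes, 8 in all, since Tph1 and Ddc have 2 starts each; Maob was not matched. Each is the 250 bases before the RefSeq start in GRCm38.p6, written 5′ to 3′ along the strand of the gene. Capitals mark matches to the GATA motif, searched on both strands as AGATAA or TGATAA and, in forms added after a first scan, as AGATAG or TGATAG. The windows are chr2:126618679-126618928 (minus strand) for Hdc, chr7:46672538-46672787 (minus strand) for the upstream start of Tph1 and chr19:59260628-59260877 (plus strand) for Slc18a2.
Hdc: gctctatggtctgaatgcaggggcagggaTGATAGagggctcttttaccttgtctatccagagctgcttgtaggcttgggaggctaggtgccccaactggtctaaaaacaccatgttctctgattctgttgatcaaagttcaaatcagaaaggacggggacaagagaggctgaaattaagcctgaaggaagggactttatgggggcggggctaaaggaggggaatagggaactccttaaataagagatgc
Tph1: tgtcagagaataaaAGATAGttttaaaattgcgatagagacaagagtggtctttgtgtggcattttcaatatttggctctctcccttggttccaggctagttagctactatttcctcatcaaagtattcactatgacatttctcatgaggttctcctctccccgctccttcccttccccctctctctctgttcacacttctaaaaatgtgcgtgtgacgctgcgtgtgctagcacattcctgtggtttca
Slc18a2: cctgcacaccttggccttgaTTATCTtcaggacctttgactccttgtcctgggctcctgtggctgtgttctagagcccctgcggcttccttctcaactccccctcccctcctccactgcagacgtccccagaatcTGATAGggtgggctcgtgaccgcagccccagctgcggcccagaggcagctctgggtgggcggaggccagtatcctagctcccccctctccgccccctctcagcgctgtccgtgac
In GENCODE M21 none of the 3 windows holds an exon. The Hdc window lies in an intron of a noncoding Hdc transcript with an earlier start, and the Slc18a2 window lies in an intron of the antisense gene Gm29261.

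The letters that matched were TGATAG, 221 bases before the start of Hdc, and AGATAG, 236 bases before the upstream start of Tph1. Hdc and this start of Tph1 matched only forms added after the first scan, and held neither AGATAA nor TGATAA. Slc18a2 held TTATCT, the reverse complement of AGATAA, 230 bases before its start and TGATAG 115 bases before it. The promoter of Maoa, a gene listed at 0, held TTATCA 238 bases before its start. No form of the motif was found in the promoter of Hnmt, those of Ddc or that of the downstream Tph1 start. A match to at least 1 of the 4 forms was found in 26.5% of 32851 RefSeq promoters of this length, and a match to AGATAA or TGATAA, which are among the 4, in 16.6%. The interferon-stimulated response element, searched as a pair of GAAA with 2 bases between them, the STAT site, searched as TTCNNNGAA, and the E-boxes CACGTG and CATGTG were in none of the 8 promoters, against 2.98%, 7.02% and 17.6% of all promoters. These are matches of letters and not measured binding sites.

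Hdc (chr2:126593667-126619299, minus strand) encodes the only enzyme that makes histamine. It measured 1058, 1210.4 and 1146 CPM in oil 1, 3 and 4 and 1839, 2059 and 1194 CPM in tamoxifen 1, 2 and 4. Tamoxifen 1 and 2 lay above every oil library, whereas tamoxifen 4 lay within the oil range, so the groups overlapped. The means were 1138 ± 76.6 CPM (SD, n = 3) and 1697 ± 449.6 CPM (SD, n = 3). On the log2 scale the difference was 0.58 ± 0.19 (SE), at an edgeR adjusted p = 0.157. Without tamoxifen 4 it was 0.78, with an edgeR adjusted p = 0.000123. In that fit 19.2% of all genes passed in the same direction and 36.3% in either direction, so a call there is common to many genes.

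Tph1 (chr7:46644641-46672537, minus strand) encodes the rate-limiting enzyme of serotonin synthesis outside the nervous system. It measured 224, 234 and 245 CPM in oil 1, 3 and 4. In the libraries labelled tamoxifen it measured 610.0, 803 and 401 CPM in 1, 2 and 4. The 3 tamoxifen libraries lay above all 3 oil libraries, with tamoxifen 4 the lowest of them. Such a separation was seen in this direction for 13.3% of all genes tested, and in the other for 11.8%. Means were 234 ± 10.1 CPM and 605 ± 201 CPM (SD, n = 3 each), a rise of 1.37 ± 0.22 (SE) in log2 units at an edgeR adjusted p = 0.0342. The call depended on which libraries entered the fit. Without tamoxifen 4 the log2 fold change was 1.59, with an edgeR adjusted p = 1.36e-05. When any one of the other 5 libraries was left out, the log2 fold change was between 1.11 and 1.39 and the edgeR adjusted p-value between 0.0692 and 0.202. In those 5 fits between 0.0674% and 0.135% of all genes passed.

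Ddc (chr11:11814101-11898144, minus strand) encodes the second enzyme of serotonin synthesis, which also decarboxylates L-DOPA. It measured 299, 317 and 289.8 CPM in oil 1, 3 and 4 and 328, 314 and 231 CPM in tamoxifen 1, 2 and 4. Tamoxifen 4 was the lowest of the 6, while tamoxifen 1 and 2 lay within or just above the oil range. The means were 302 ± 13.7 CPM and 291 ± 52.2 CPM (SD, n = 3 each). The log2 difference was -0.05 ± 0.13 (SE; edgeR adjusted p = 0.834), and its 95% confidence interval ran from -0.36 to 0.26. Without tamoxifen 4 the sign turned, to 0.09 with an edgeR adjusted p = 0.35.

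**Figure D1:**
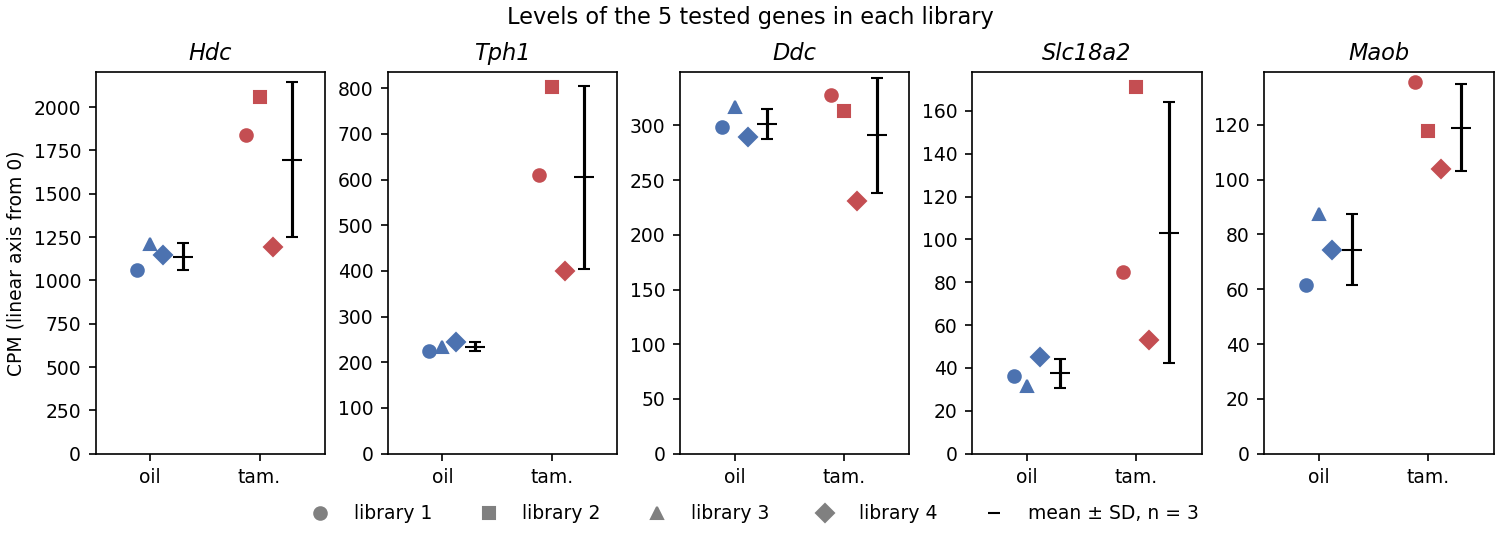
Expression of the 5 tested genes in each library, in CPM on linear axes that start at 0, with a panel for each gene. Points are libraries (oil in blue, tamoxifen in red) and black bars are means ± SD; Tph1, Slc18a2 and Maob did not overlap between groups, whereas tamoxifen 4 lay within the oil range for Hdc and below it for Ddc.

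Since Tph1 and Ddc act in sequence, their ratio was followed within each library, on the log2 scale and per kb of exon; the ratios were chosen after the values were seen. In oil 1, 3 and 4 the ratio of Tph1 to Ddc was -1.60, -1.62 and -1.43, while tamoxifen 1, 2 and 4 gave -0.29, 0.17 and -0.39. Tamoxifen 4 lay with its group here, and the groups did not overlap. The difference between group means was 1.38, from -1.55 ± 0.10 to -0.17 ± 0.30 (SD, n = 3 each). Hdc to Ddc, which sets histamine synthesis beside the same decarboxylase, was 1.63, 1.74 and 1.79 in oil and 2.30, 2.52 and 2.18 in tamoxifen. Tph1 to Hdc was -3.23, -3.36 and -3.22 in oil and -2.58, -2.35 and -2.57 in tamoxifen. The differences were 0.61 and 0.77, again without overlap. Each of the 3 ratios gave a two-sided exact permutation p = 0.1, also after Benjamini-Hochberg adjustment over the 3. That is the smallest p that 3 against 3 libraries allow. Because the ratios were chosen with the values known, this p and the lack of overlap only describe them. Ranges of single genes did not overlap for 13.3% in one direction and 11.8% in the other, and the share among gene pairs was not counted.

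Slc18a2 (chr19:59260896-59296012, plus strand) encodes the granule transporter for histamine and serotonin. It measured 36.3, 31.6 and 44.9 CPM in oil 1, 3 and 4 and 85.0, 171 and 53.2 CPM in tamoxifen 1, 2 and 4. The 3 tamoxifen libraries lay above the oil libraries, but they spread over a wide range, with tamoxifen 2 the highest. The means were 37.6 ± 6.75 CPM and 103 ± 61.0 CPM (SD, n = 3 each). Its log2 fold change of 1.45 ± 0.38 (SE) had an edgeR adjusted p = 0.0965 and did not pass. Without tamoxifen 4 it was 1.77, with an edgeR adjusted p = 0.000562, and without tamoxifen 2 it was 0.88. Gm29261, on the opposite strand, shares 2.62% of the exon bases of Slc18a2, and reads there cannot be assigned without strand.

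Maob (chrX:16709282-16817366, minus strand) encodes the mitochondrial monoamine oxidase B. It measured 61.5, 87.4 and 74.2 CPM in oil 1, 3 and 4 and 135, 118 and 104 CPM in tamoxifen 1, 2 and 4. The groups did not overlap, and the tamoxifen libraries lay closer to each other than those of Slc18a2 did. The means were 74.4 ± 13.0 CPM and 119 ± 15.9 CPM (SD, n = 3 each), which differed by 0.68 ± 0.15 (SE) in log2 units at an edgeR adjusted p = 0.0666. Without tamoxifen 4 it was 0.77, with an edgeR adjusted p = 0.00172. The DESeq2 Wald test, under which 8.13% of all genes passed, called Maob (adjusted p = 0.002), Tph1 (1.44e-07) and Hdc (0.0391), but not Slc18a2 (0.0553).

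**Figure D2:**
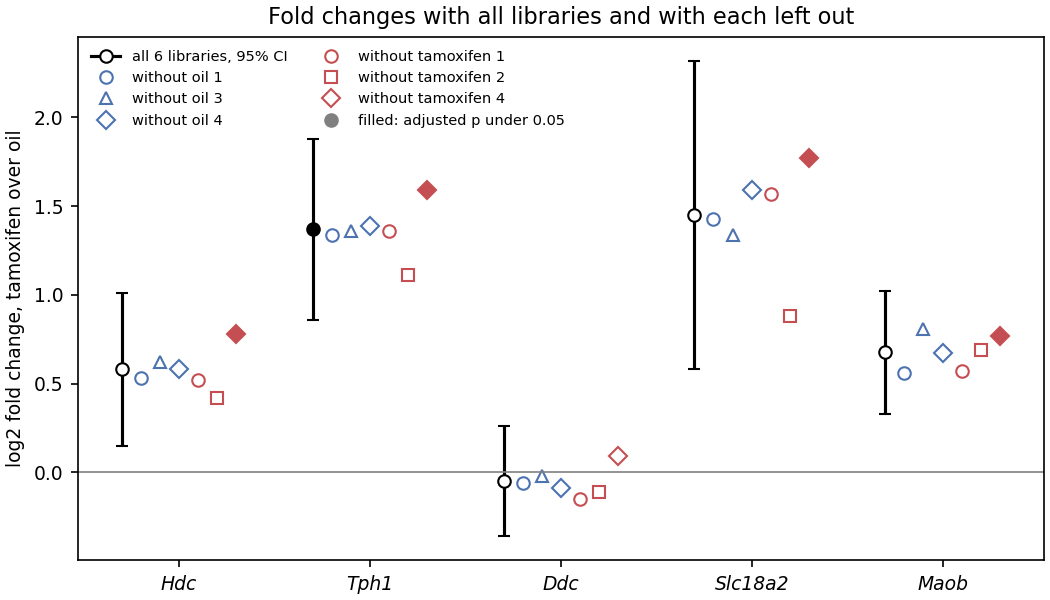
Log2 fold change of each tested gene, tamoxifen over oil, with all 6 libraries (black, bar: 95% confidence interval) and with each library left out in turn (coloured), filled where the edgeR adjusted p-value was under 0.05. Leaving out tamoxifen 4 raised every value and put Hdc, Tph1, Slc18a2 and Maob past the threshold, and leaving out any other library put none of the 5 past it.

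Hnmt (chr2:24002910-24049394, minus strand) and Maoa (chrX:16619698-16687818, plus strand), the main enzymes of intracellular histamine and serotonin breakdown, held 0 counts in all 6 libraries. The limit that a count of 0 allows was 3 counts, or between 0.145 and 0.177 CPM, for counting error only. In all, 34% of the 23608 rows were at 0 in every library. Some genes that these cells should express were also very low in the table. Gapdh, a glycolytic enzyme of all cells, held between 102.5 and 140.5 counts, and Ptprc, which encodes the leukocyte antigen CD45, between 1 and 11.5 counts. Of 25 ubiquitous genes looked at after the values were seen, 2 lay below 10 CPM in the highest library and none was at 0; Actb, which encodes beta-actin, measured 3212 to 3409 CPM. Hnmt and Maoa are therefore reported only as listed at 0.

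Levels of different genes were compared as CPM per kb of exon. In the libraries labelled oil, Hdc was highest at 476 ± 32.04 CPM per kb (SD, n = 3), and ranked 65 of 11428 tested genes with a known length. Ddc followed at 144 ± 6.56 CPM per kb, rank 353. Tph1 was at 49.2 ± 2.12 CPM per kb, rank 1616, and Maob at 30.8 ± 5.38 CPM per kb, rank 2714. Slc18a2 was lowest at 9.94 ± 1.78 CPM per kb, rank 6369, near the middle of all tested genes. No neighbours in this order overlapped among the oil libraries. In the libraries labelled tamoxifen, Hdc was at 709.6 ± 188 CPM per kb, Ddc at 139 ± 24.9, Tph1 at 127 ± 42.3, Maob at 49.4 ± 6.60 and Slc18a2 at 27.2 ± 16.1 CPM per kb. There, Ddc (110.4 to 157) and Tph1 (84.3 to 169) overlapped, as did Maob (43.0 to 56.2) and Slc18a2 (14.05 to 45.2).

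**Figure D3:**
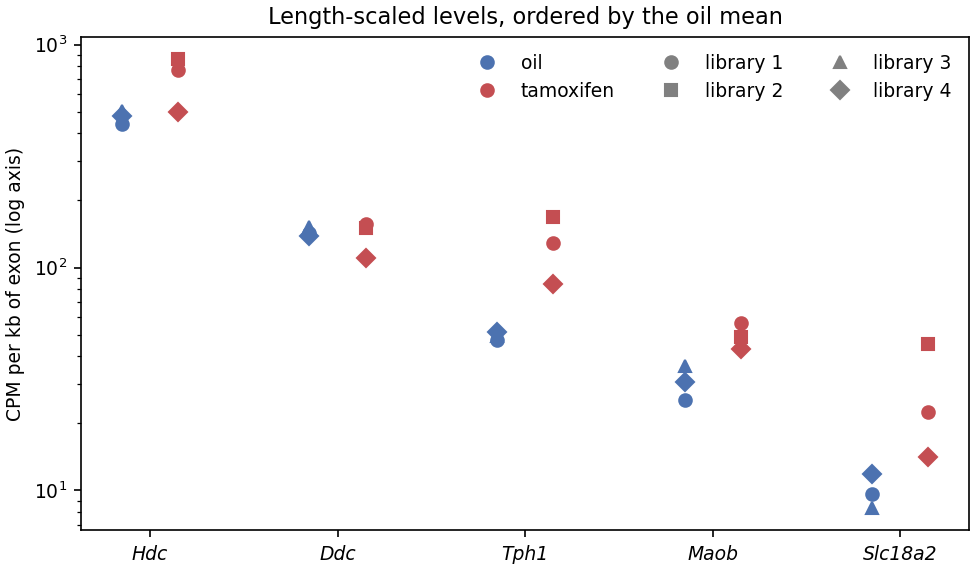
CPM per kb of exon (log axis) of the 5 tested genes in each library, ordered by the oil mean, with oil in blue, tamoxifen in red and the library number as the shape. Hdc lies above the others in all 6 libraries, while Tph1 moves from below Ddc in oil to its range in tamoxifen.

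The genes whose log2 CPM followed each of the 5 most closely over the 6 libraries were named as a description, with no test, by Pearson's r among genes with a mean of at least 1 CPM. For Hdc they were Qsox1, a sulfhydryl oxidase, and the vesicle traffic GTPases Rab4a and Rab21 (r = 0.998 each). For Tph1 they were Clec4e, a lectin receptor (r = 0.999), Rsu1 (r = 0.998) and Cdk18 (r = 0.997). For Slc18a2 they were Mfsd2b, a lipid transporter, and Plcl2 (r = 0.998 each) and Stx3, a syntaxin of granule fusion (r = 0.997). For Ddc they were Zfp592 (r = 0.995), D8Ertd738e (r = 0.993) and Synj1 (r = 0.99), and for Maob Amotl1 (r = 0.992), Vps54 (r = 0.991) and Ehhadh (r = 0.991).

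The partners of these genes were followed in 6 lists that together held 112 genes, of which 71 were tested and 23 were at 0 in all libraries. In edgeR only Slc7a8 of the 71 rose past the threshold, and 0 fell. At an unadjusted edgeR p-value under 0.05 there were 15, or 21.1%, against 20.6% of all genes. The DESeq2 test called 7 higher, which were Slc7a8, Slc3a2, Hrh2, Pts, Pdxk, Tcirg1 and Ndst1, and 1 lower, Slc38a5, where 8.13% of all genes passed in either direction; these were named after their values were seen. The median log2 fold change over the 71 was 0.04, beside 0.00 over all genes. Without tamoxifen 4, 21 of 72 tested partners rose (29.2%) and 11 fell (15.3%), beside 19.2% and 17.1% of all genes.

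For amino acid supply, 11 of 19 genes were tested and 1 rose. Slc7a8, which encodes the neutral amino acid transporter LAT2, measured 40.7, 56.0 and 55.3 CPM in oil 1, 3 and 4 and 669, 784 and 197 CPM in tamoxifen 1, 2 and 4. The groups did not overlap, and tamoxifen 4 was again the lowest of its group. It rose by 3.44 ± 0.47 (SE) in log2 units, at an edgeR adjusted p = 0.028. Slc3a2, the heavy chain that pairs with such transporters, measured 300.4 to 315 CPM in oil and 387 to 569.6 CPM in tamoxifen, at 0.60 ± 0.14 and adjusted p = 0.0746. Slc7a5, the related transporter LAT1, was at 803 to 828 CPM in oil and 723 to 900.3 CPM in tamoxifen, at 0.02 ± 0.10 and adjusted p = 0.94. The tryptophan-degrading genes Ido1, Ido2 and Kynu were listed at 0 in all libraries. Others of that breakdown, named after their values were seen, were detected and did not pass. Kmo measured 3.24 to 14.7 CPM in oil and 4.37 to 9.52 CPM in tamoxifen (edgeR adjusted p = 0.759). Afmid measured 7.60 to 8.31 CPM and 7.07 to 9.30 CPM (0.973), and Tdo2 at most 0.994 CPM and 0.620 CPM (0.772).

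For receptors, 3 of 18 genes were tested, 0 passed and 10 were at 0. The histamine receptor Hrh4 measured 21.2 to 25.4 CPM in oil and 43.4, 47.9 and 20.8 CPM in tamoxifen 1, 2 and 4, with tamoxifen 4 below the oil range. In log2 units it differed by 0.72 ± 0.28 (edgeR adjusted p = 0.213). The histamine receptor Hrh2, named after its values were seen, measured 6.73, 6.57 and 7.92 CPM in oil and 19.1, 37.5 and 10.8 CPM in tamoxifen. The groups did not overlap, with a log2 difference of 1.66 ± 0.40 at an edgeR adjusted p = 0.0827. The serotonin receptor Htr2a measured 18.8, 20.2 and 19.1 CPM in oil and 13.7, 17.2 and 16.5 CPM in tamoxifen, at -0.29 ± 0.13 and adjusted p = 0.261.

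For other amine enzymes and transporters, 9 of 20 genes were tested and 0 passed, with a median of 0.08. Slc22a3, a low-affinity transporter of histamine and other amines across the cell membrane, measured 301, 276 and 313 CPM in oil and 233, 239 and 302 CPM in tamoxifen, at -0.20 ± 0.12 and adjusted p = 0.349. Slc18a1, which encodes VMAT1, the other vesicular monoamine transporter, measured 3.76 to 6.5 CPM in oil and 3.81 to 8.51 CPM in tamoxifen, at 0.14 ± 0.34. Tph2, the neuronal tryptophan hydroxylase, was at 0, as were Th and Dbh, which make dopamine and noradrenaline. Slc6a4, the serotonin transporter of the cell membrane, did not pass the filter. It held 0, 0.5 and 2.5 counts in oil 1, 3 and 4 and 12.5, 41 and 10.5 counts in tamoxifen 1, 2 and 4. Against 3 counts in each oil library its mean CPM was at least 7.87-fold higher in tamoxifen, and with no filter on low counts, where 2.82% of all genes passed, its edgeR adjusted p was 0.041. Slc18a1 and Slc6a4 were named after their values were seen.

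For the cofactor enzymes, which supply the tetrahydrobiopterin that Tph1 uses and the pyridoxal phosphate that Hdc and Ddc use, 10 of 11 genes were tested and 0 passed, with a median of 0.21. Qdpr, which recycles tetrahydrobiopterin, measured 86.9 to 91.3 CPM in oil and 62.9, 79.6 and 96.0 CPM in tamoxifen, at -0.16 ± 0.14 and adjusted p = 0.536. Pdxk, the kinase that activates vitamin B6, measured 62.1 to 71.6 CPM in oil and 84.3 to 103 CPM in tamoxifen without overlap, at 0.48 ± 0.11 and adjusted p = 0.0692. For the vacuolar proton pump, whose gradient drives the transporter encoded by Slc18a2, 19 of 25 genes were tested and 0 passed, with a median of -0.04. Atp6v1b2 was at a log2 fold change of -0.20 ± 0.08 with adjusted p = 0.24, and Atp6v0d1 by 0.17 ± 0.12 with adjusted p = 0.43. For the granule matrix, on which amines are held, all 19 genes were tested and 0 passed, with a median of 0.19. Srgn, the core protein serglycin, measured 1218 to 1329.7 CPM in oil and 1306 to 1686 CPM in tamoxifen, at 0.21 ± 0.11 and adjusted p = 0.317. Ndst2, which sulfates heparin in mast cells, measured 886 to 914 CPM in oil and 1099, 1279 and 802 CPM in tamoxifen, at 0.24 ± 0.16 and adjusted p = 0.396.

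Markers of cell types known to hold these amines were read beside the genes. Of 22 mast cell markers 17 were tested, 3 rose and 0 fell, 16 had a positive fold change and their median was 0.71, beside 1.75% of all genes that rose and a median of 0.00. Fcer1a, the alpha chain of the high-affinity IgE receptor, measured 68.2, 98.0 and 85.7 CPM in oil and 355, 552 and 188 CPM in tamoxifen, at 2.12 ± 0.35 with an edgeR adjusted p = 0.0381. Mitf, a transcription factor of mast cells, rose by 0.71 ± 0.13 with an edgeR adjusted p = 0.0434. Tpsb2, a mast cell tryptase, rose by 4.16 ± 0.75 with an edgeR adjusted p = 0.0402, from at most 0.315 CPM in oil to between 2.00 and 8.92 CPM. It held 2, 6.5 and 5.5 counts in oil 1, 3 and 4, so the size of its fold change rests on few counts. The most abundant, Il1rl1, the receptor for interleukin-33, measured 1619 to 1681 CPM in oil and 2609.9, 2515 and 1598 CPM in tamoxifen 1, 2 and 4. It was at 0.44 ± 0.18 with edgeR adjusted p = 0.224. Ms4a2, another chain of the IgE receptor and named after its values were seen, did not rise. It measured 862 to 917 CPM in oil and 830 to 931 CPM in tamoxifen, at -0.04 ± 0.09 with edgeR adjusted p = 0.807. The summed level of the list was 4387 to 4494 CPM in oil and 4929 to 9510.4 CPM in tamoxifen, lowest in tamoxifen 4, and Mrgprb1 was at 0. Without tamoxifen 4, 14 of 18 tested markers rose, in a fit where 19.2% of all genes rose.

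The 11 basophil markers, of which 7 were tested and 0 passed, summed to 769 to 966 CPM in oil and 959 to 2401 CPM in tamoxifen, lowest in tamoxifen 4. Csf2rb, a cytokine receptor chain, measured 652 to 827 CPM in oil and 2087, 2254 and 861 CPM in tamoxifen 1, 2 and 4. It made up most of the summed level and had an edgeR adjusted p = 0.0905. The DESeq2 test called it and Mcpt8, a basophil protease. Of the 7 tested markers 6 had a positive fold change. Cd200r3, named after its values were seen, did not, at 98.5 to 122 CPM in oil and 117, 115 and 78.1 CPM in tamoxifen (-0.10 ± 0.16, edgeR adjusted p = 0.727). All 5 tested genes, like the mast cell and basophil sums, were lowest in tamoxifen 4 within their group, and the part of these cells in their values was not tested. In bulk samples, fewer cells of a type and less RNA per cell cannot be told apart. Megakaryocyte and platelet markers, whose cells store but hardly make serotonin, had 1 of 7 tested genes higher, Itga2b (2.51 ± 0.48, edgeR adjusted p = 0.0435), and summed to 353 to 389 CPM in oil and 373 to 451 CPM in tamoxifen; Gp5, the most abundant, was at 0.01 on the log2 scale, and Gp6 was at 0.

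Markers of the remaining cell types were low, except for erythroid ones. T and NK cell markers summed to at most 2.57 CPM in oil and 7.65 to 56.4 CPM in tamoxifen, nearly all of it from Nkg7 (4.03 ± 0.73, edgeR adjusted p = 0.041), and 8 of the 11, Cd3e and Cd8a among them, were at 0. Macrophage markers summed to at most 8.89 CPM in oil and 22.8 CPM in tamoxifen, with Hmox1 higher (2.53 ± 0.47, edgeR adjusted p = 0.0426). Eosinophil markers summed to at most 21.3 CPM with Epx and Prg3 at 0 and Siglecf the most abundant. B cell and neutrophil markers had 0 tested genes and summed to at most 0.878 and 1.09 CPM. Erythroid markers summed to 3906 to 6178 CPM in oil and 3126 to 7517 CPM in tamoxifen, led by Hba-a1. Of these 9 markers, all tested, 1 passed as lower and 0 as higher in edgeR, beside 0.267% and 1.75% of all genes. A positive fold change was seen for 5 of the 9.

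**Figure D4:**
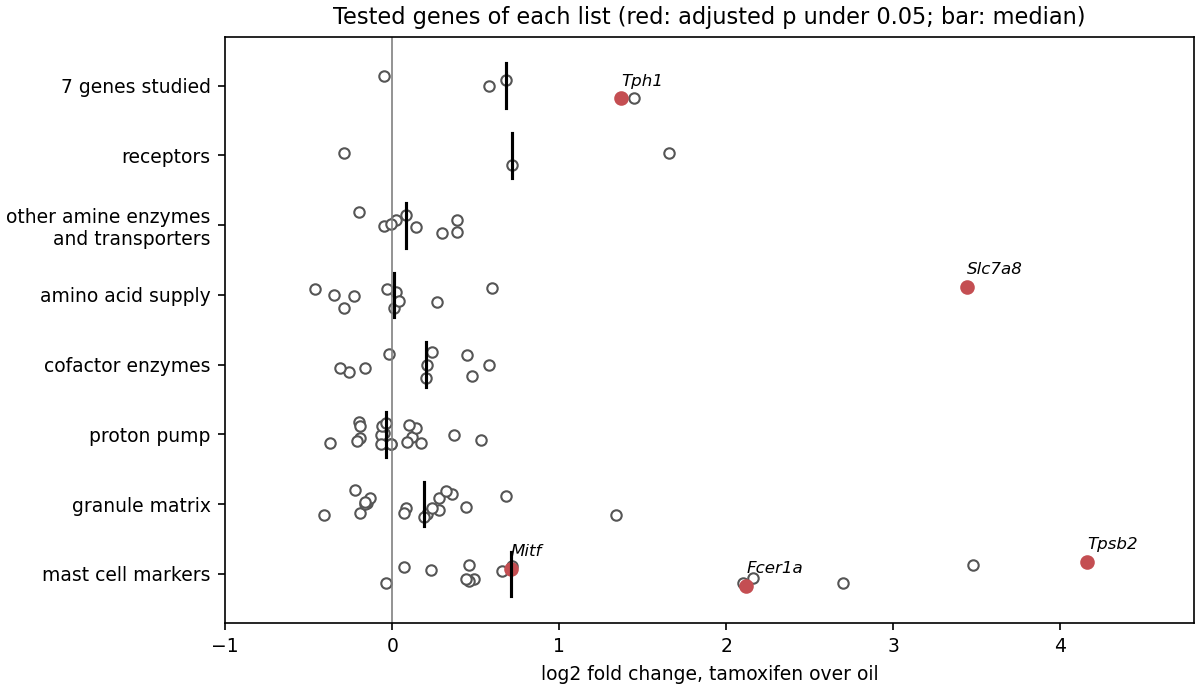
Log2 fold change, tamoxifen over oil, of the tested genes among the 7 studied, in the 6 partner lists and among the mast cell markers; red points had an edgeR adjusted p-value under 0.05 and bars are list medians. Tph1, Slc7a8 and 3 mast cell markers passed, and the proton pump, cofactor and matrix lists lay near 0 with medians from -0.04 to 0.21.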

How the data were processed

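RNA of sorted splenic AE9a cells was extracted with Trizol and sequenced; the labels name a Nextera DNA Flex kit, the study a sequencing provider. The submitters' processing notes name STAR, DESeq2 and mm10. The counting program, strand setting and annotation were not given in the sources used here. For 6 libraries the authors deposited estimated counts by gene symbol, unscaled and in steps of 0.5; 26 rows carried dates in place of symbols and were not named. Libraries are named by the table's numbers: titles number oil 1, 2 and 4 and tamoxifen 1, 3 and 4, so oil 3 and tamoxifen 2 were used by group only.

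Counts were rounded and tested in R 4.3.3 with edgeR 4.0.16 (filterByExpr, TMM, quasi-likelihood F test, no block), with Benjamini-Hochberg adjustment over 11614 genes and a threshold of 0.05. CPM were computed from unrounded counts over the TMM-scaled total of tested genes, and exon lengths came from GENCODE M21. The authors' design was not stated. Per the study's methods each group came from 3 mice, described in the labels as biological replicates. Replicates differed beyond sampling noise in each pair (chi-square per degree of freedom at least 7.37). Each library held 17118964 to 20741399 counts, and, since reads were not tagged by molecule, counting limits cover counting error only.

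The 7 genes, the partner lists and the marker lists were chosen with earlier results of these data known. Genes named were Usp18, the 7 genes, list genes with an adjusted p-value under 0.05, the 2 most abundant tested genes of each partner list, the most abundant tested gene of each marker list, and for each tested gene of the 7 the 3 genes with the highest Pearson r on log2 CPM (prior count 2, mean of at least 1 CPM); others were chosen after their values were seen. Some genes that the rule names are not reported here. Alternatives were DESeq2 size factors, upper-quartile scaling, the DESeq2 1.42.0 Wald test, limma-voom (limma 3.58.1), no low-count filter, a mean of at least 50 counts, each library left out and a replicate block. The scripts were tested on simulated data. A ratio of Hdc to Hnmt was planned and has no value, because Hnmt was at 0; ratios among Hdc, Tph1 and Ddc were added. The ATAC-seq and the earlier batch named by the labels were not analysed here.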

Additional observations from a re-analysis of the deposited data

How the results depend on the processing

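With DESeq2 size factors and upper-quartile scaling within edgeR, the 5 tested genes kept their direction and their side of the threshold. Genes higher and lower, 203 and 31 with all libraries, were 713 and 231 with the DESeq2 Wald test, 48 and 6 with limma-voom, 372 and 61 with no low-count filter, and 120 and 17 at a mean of at least 50 counts; with a library left out they ran from 8 to 2278 and from 0 to 2024. The upper ends came without tamoxifen 4, where 5501 genes had an unadjusted p-value under 0.05; in the fits without any other library, which gave 0 lower genes in edgeR, 1373 to 1659 did. Partner genes higher, 1 with all libraries, were 7 with DESeq2, 5 with no filter and 0 to 21 with a library left out; those lower, 0 with all libraries, were 1 with DESeq2 and 0 to 11 with a library left out.

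Hdc passed with DESeq2 (0.58, adjusted p = 0.0391) and ran from 0.42 to 0.78 with a library left out. Tph1 did not pass with limma-voom (1.31, adjusted p = 0.0545) and ran from 1.11 to 1.59. Ddc ran from -0.15 to 0.09, turning its sign without tamoxifen 4 (0.09). Slc18a2 passed with no filter (1.44, edgeR adjusted p = 0.0457) and ran from 0.88 to 1.77. Maob passed with DESeq2 (0.68, adjusted p = 0.002) and with no filter (0.67, edgeR adjusted p = 0.0347), and ran from 0.56 to 0.81. Without tamoxifen 4 Hdc (0.78), Slc18a2 (1.77) and Maob (0.77) passed. The cause of these changes was not tested. The Tph1 to Ddc difference ran from 1.21 to 1.49 with a library left out.

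Numbers 1 and 4 occur in both groups, and deviations from the group means correlated by -0.127 and 0.0616 between same-numbered libraries. With so few pairs, and tamoxifen 4 apart from its group, this cannot tell whether they share more than a number. A replicate block by these numbers gave 215 genes higher and 26 lower. Its group difference rests on libraries 1 and 4 of each group, since oil 3 and tamoxifen 2 have no partner. The p-values of this block therefore rest on few residual degrees of freedom. Under the block Maob passed (0.81, edgeR adjusted p = 0.0182) and Tph1 was 1.08 (0.00238). Hdc was 0.43 (0.489), Ddc -0.10 (0.961) and Slc18a2 0.73 (0.0684). The planned Hdc to Hnmt ratio and its alternatives were not run, because Hnmt held 0 counts. Depth limits genes of a few counts, such as Slc6a4, more than the tested genes. Whether depth accounts for the genes listed at 0 was not tested.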
